A study of Rattus norvegicus with 12 samples.

Results

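The complement and coagulation factors described here are 39 genes chosen by name from a list of plasma protease cascades. This list and the other gene lists below were chosen with earlier results of these data known. The shares of listed genes called therefore describe chosen genes and are not independent of the data. Of the 39, 35 had a probe set on the array that carried their symbol alone, and all 35 passed the filter on low values. C2 and Cfb shared a probe set that carried both symbols, and C5 and F9 were not named by a probe set in the table used here, so these 4 were not tested. The 35 stand among 8698 genes tested, of 14497 with a probe set of 1 symbol.

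Livers were taken from Sprague Dawley fetuses at embryonic day 19 (term is day 21), and 12 arrays of the Affymetrix Rat Gene 1.0 ST type measured their RNA in 4 groups of 3. In 1 diet group the dams ate freely until delivery, and in the other they were fasted for the last 48 hr, beginning at day 17, a model of intrauterine growth restriction (the labels' IUGR). Each diet group gave total liver RNA and RNA from polysomes, the messages loaded with several ribosomes, separated on sucrose gradients. The labels name 3 dams per diet, or in the design text 3 fetuses, and call the samples biological replicates. They say that polysome RNA was taken from pooled preparations, without saying what was pooled, and do not say how many fetuses a sample holds. The p-values measure only the spread between these samples. All values are the authors' RMA intensities on a linear scale. Changes are differences of log2(intensity + 1), given with the standard error (SE) of a limma fit to all 12 arrays, n = 3 per group. A gene was called where its p-value, adjusted by the Benjamini-Hochberg method over the 8698 genes, lay under 0.05.

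Complement is a chain of plasma proteases that is set off by antibody (C1r and C1s), by sugars on microbes (mannose-binding lectins with their Masp proteases) or by slow self-activation. All routes meet at C3 and end in a membrane pore of C5 to C9. Coagulation runs in the same way from a contact phase or from tissue factor through vitamin K dependent proteases to thrombin (F2), which turns fibrinogen into fibrin, and plasmin, made from Plg, dissolves the clot. The hepatocyte makes most of these proteins and secretes them, so their messages are translated at the endoplasmic reticulum. In the fetus the liver takes on this work while it is still a blood-forming organ.

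RefSeq promoters (GRCr8) were found for 32 of the 39 members. Those shown are of the member that rose with fasting in total RNA (F11), its chromosome neighbour (Klkb1), the member with the next smallest p in that comparison (Hgfac), and the 3 fibrinogen chains, neighbours that encode 1 protein. Each run is the 150 bases before the gene's start, 5′ to 3′ on the gene's strand. Capitals mark a match to any of 5 motifs, each searched on both strands. The half-site of the hepatocyte factor HNF1 was spelled GTTAAT. The core of C/EBP, a liver and acute phase factor, was spelled TTNCNNAA. The type II element of the interleukin-6 response was spelled CTGGGAA. For the nuclear receptor HNF4 the core was CAAAGTCC. For the TATA box it was TATAAA. No match overlapped another in the runs shown.
F11: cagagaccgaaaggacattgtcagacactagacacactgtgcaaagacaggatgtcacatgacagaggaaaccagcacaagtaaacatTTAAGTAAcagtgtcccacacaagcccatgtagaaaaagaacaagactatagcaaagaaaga
Klkb1: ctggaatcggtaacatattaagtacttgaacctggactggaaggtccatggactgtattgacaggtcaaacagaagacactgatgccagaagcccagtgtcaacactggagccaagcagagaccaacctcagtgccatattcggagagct
Hgfac: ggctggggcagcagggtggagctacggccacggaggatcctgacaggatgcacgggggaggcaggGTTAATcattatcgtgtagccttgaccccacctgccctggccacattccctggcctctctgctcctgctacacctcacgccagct
Fga: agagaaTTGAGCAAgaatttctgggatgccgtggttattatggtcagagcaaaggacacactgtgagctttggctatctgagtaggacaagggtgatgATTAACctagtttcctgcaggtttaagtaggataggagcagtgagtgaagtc
Fgb: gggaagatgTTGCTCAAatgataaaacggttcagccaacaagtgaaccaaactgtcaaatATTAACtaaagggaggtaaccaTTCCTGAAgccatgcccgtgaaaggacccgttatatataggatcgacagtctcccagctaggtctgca
Fgg: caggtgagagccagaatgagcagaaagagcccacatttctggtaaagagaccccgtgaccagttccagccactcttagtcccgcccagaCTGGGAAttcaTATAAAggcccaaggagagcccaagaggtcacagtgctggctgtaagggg
They lie at chr16:53720352-53720501 (plus strand), chr16:53691076-53691225 (plus), chr14:79938774-79938923 (minus), chr2:170672019-170672168 (plus), chr2:170700876-170701025 (minus) and chr2:170652933-170653082 (plus), in the same order as listed. The HNF1 half-site was present in Fga, Fgb and Hgfac, the C/EBP core in F11, Fga and Fgb, and the interleukin-6 element and the TATA box in Fgg. None of the 5 motifs matched in the window of Klkb1. Over the 32 member promoters, the HNF1 half-site occurred in 11 (34.4%), against 3.74% of all 33469 promoters in the same window. The C/EBP core occurred in 17 (53.1%, against 23.3%) and the interleukin-6 element in 6 (18.8%, against 5.74%). The HNF4 core and the TATA box each occurred in 1 (3.12%, against 0.699% and 8%). Each member counts with 1 promoter, while the 33469 are all entries of full length, members included. They were not reduced to 1 per gene or to genes expressed in liver. A match of letters describes the sequence and does not show that a factor binds there.

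Array medians of intensity ran from 101.3 to 108.3 over all 28826 probe sets, and arrays of 1 group correlated at 0.991 to 0.996. The 12 hepatocyte markers were all above the filter, and their summed intensity was 141070 to 143876 in fed and 141860 to 146801 in fasted total RNA. Of 14 exocrine pancreas markers, 12 had a probe set and 3 passed the filter. The sum over all 12 was 4398, 1151 and 1935 in fed total RNA and 1026 to 1041 in fasted total RNA. Fed total 1 thus stood apart. Endothelial markers (10 of 13 tested) summed to 7222 to 8085 in fed and 9181 to 9351 in fasted total RNA. Mesenchymal markers (9 of 9) summed to 4905 to 5870 and 5571 to 6169.

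The first question was how strongly the messages of these factors were represented on polysomes. Nearly all were lower in polysome RNA than in total RNA in both diets. RNA of both fractions was extracted by different methods (acid phenol for polysomes, guanidine thiocyanate and caesium chloride for total RNA), and extraction and fraction cannot be told apart. In fed dams 32 of 35 (91.4%) were called lower and 0 higher, where 21.8% of all genes tested were called lower and 28% higher. In fasted dams 34 of 35 (97.1%) were called lower and 0 higher, where 20.2% of all genes were called lower and 29.5% higher. In either direction 49.9% of all genes were called in fed and 49.7% in fasted dams. All 3 polysome arrays lay below all 3 total arrays in 33 of 35 members (94.3%) in each diet, beside 25.4% of all genes in fed and 23.2% in fasted dams, and 57.7% and 57.3% of all genes did not overlap in either direction. An unadjusted p under 0.05 was reached by 33 and 34 members, beside 55.9% and 55.8% of all genes. The median change of the members was -0.62 log2 in fed and -0.74 in fasted dams, beside 0.05 and 0.07 over all genes tested. The values are relative to the other messages of each array, since RMA sets all arrays to 1 scale.

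**Figure D1:**
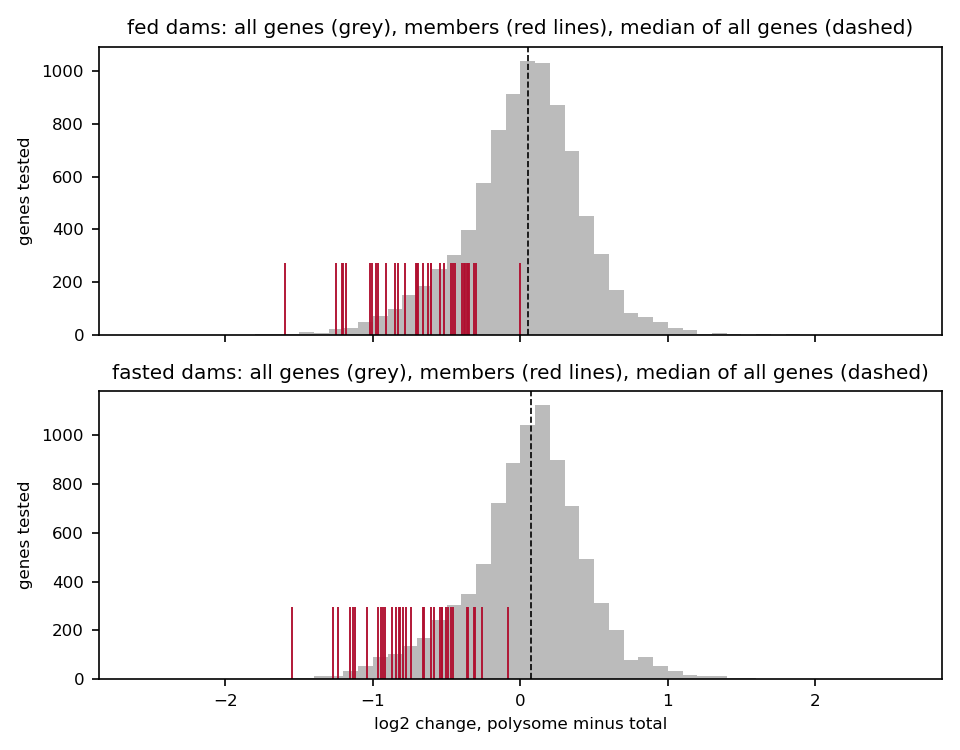
Histogram of the log2 change from total to polysome RNA (x axis) over the 8698 genes tested (y axis, number of genes), in fed dams (top) and fasted dams (bottom). Red lines mark the 35 complement and coagulation genes, with medians of -0.62 and -0.74, and the dashed line marks the median of all genes, 0.05 and 0.07.

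C9, which polymerises into the membrane pore, fell furthest of all members. C9 measured 1355, 1411 and 1446 in total RNA and 427, 434 and 539 in polysome RNA of fed dams, and 1822, 1612 and 1417 and 548, 630.2 and 481 in those of fasted dams. Both polysome groups lay far below both total groups, 3.02-fold lower in fed dams (-1.60 ± 0.12 SE log2, limma adjusted p = 8.62e-07) and 2.92-fold lower in fasted dams (-1.55 ± 0.12, limma adjusted p = 9.05e-07). Its changes ranked among the lowest 0.172% and 0.126% of all genes tested. C6, an earlier part of the same pore, fell next furthest of the pore genes. C6 measured 2350.3, 2505 and 2545 in total RNA and 964, 1338 and 1426 in polysome RNA of fed dams, and 2260.2, 2188 and 2344 and 926, 859.9 and 1029.6 in those of fasted dams. The groups did not overlap in either diet, and C6 was 2.01-fold lower in fed dams (-1.01 ± 0.12, limma adjusted p = 2.75e-05) and 2.42-fold lower in fasted dams (-1.27 ± 0.12, limma adjusted p = 4.33e-06).

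The 3 chains of C8, the part of the pore that first enters the membrane, were each called lower in both diets. C8a, the alpha chain, changed by -0.78 log2 in fed and -0.87 in fasted dams, and C8b, the beta chain, by -0.45 and -0.55. C8g, a lipocalin that is linked to C8a, changed by -0.45 ± 0.090 and -0.26 ± 0.090 (limma adjusted p = 0.00111 and 0.0299). The fasted value of C8g was not past the threshold without fasted polysome 2, fasted polysome 3 or fasted total 3 (limma adjusted p = 0.0659, 0.113 and 0.119), with no filter (0.0538), with arrays centred on their median (0.0633), or without fed polysome 1 and fasted polysome 2 together (0.0514).

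Of the 8 genes tested that start or brake the lectin and classical routes, 6 were lower in fed and 7 in fasted dams, with medians of -0.70 and -0.78 log2. Mbl1 and Mbl2, the mannose-binding lectins, were among the lowest in fed dams, at -1.25 ± 0.14 and -1.18 ± 0.20 log2 (limma adjusted p = 1.89e-05 and 3.62e-04). In fasted dams they measured -1.04 ± 0.14 and -0.79 ± 0.20 (limma adjusted p = 7.19e-05 and 0.00551), and Mbl2 lay near the median of the group there. Mbl2 measured 3045, 2428 and 3148 in total RNA and 1687, 1052 and 1119 in polysome RNA of fed dams, and 2228, 2259 and 2473 and 1848, 1022 and 1268 in those of fasted dams. In both polysome groups the first replicate was the highest. Their proteases Masp1 and Masp2 changed by -0.83 and -0.66 in fed dams and by -0.77 and -0.82 in fasted dams.

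C4bpb was the exception. It is the beta chain of C4b-binding protein, a brake on the classical route that also carries protein S. C4bpb measured 2152, 2384 and 2436 in total RNA and 1934, 2309 and 2803 in polysome RNA of fed dams, and 2448, 2222 and 2711 and 2415, 2005 and 2543 in those of fasted dams. The 4 groups overlapped fully. Its change was 0.0007 log2 in fed dams (95% interval -0.28 to 0.28, limma adjusted p = 0.996) and -0.09 in fasted dams (-0.37 to 0.19, limma adjusted p = 0.604). The partner chain C4bpa, which lies near C4bpb on chromosome 13 with 1 protein-coding gene between them, did fall. C4bpa measured 3731, 3661 and 3650.2 in total RNA and 2237, 2230.2 and 2351 in polysome RNA of fed dams, and 4073, 3194 and 3435 and 2579, 2171 and 2052 in those of fasted dams. That was 1.62-fold lower in fed dams (-0.70 ± 0.098, limma adjusted p = 8.70e-05) and 1.57-fold lower in fasted dams (-0.65 ± 0.098, limma adjusted p = 1.36e-04). The difference between both chains was not tested.

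C1r and C1s, the adjoining genes of the proteases that bind C1q, were both called in fasted dams. The difference between them was not tested. C1s was lower by the test (-0.71 ± 0.16 in fed and -0.95 ± 0.16 in fasted dams, limma adjusted p = 0.00316 and 3.90e-04). C1r was called in fasted dams (-0.58 ± 0.16, limma adjusted p = 0.00758). The fasted groups of C1r overlapped, since fasted polysome 2 (2305) lay above fasted total 3 (2252). In fed dams C1r was not called, though its groups did not overlap. There it measured -0.30 ± 0.16 (limma adjusted p = 0.129), or 0.0277 with each liver as a fixed block and 0.032 in a fit of the fed arrays alone. C3, the hub of the cascade, and Cfi, the protease that inactivates C3b and C4b, had small falls. C3 changed by -0.31 ± 0.061 and -0.35 ± 0.061 (limma adjusted p = 9.71e-04 and 3.86e-04). Cfi changed by -0.35 ± 0.11 and -0.50 ± 0.11 (limma adjusted p = 0.0230 and 0.00273), and its fed value was not past the threshold without fed polysome 1, fed total 2 or fed total 3 (0.0976, 0.0635 and 0.0779) or without fed polysome 1 and fasted polysome 2 together (0.0631). The probe set shared by C2, a protease of the classical convertase, and Cfb, its counterpart in the alternative pathway, read 992, 981 and 915 in total RNA and 614, 713 and 765 in polysome RNA of fed dams, which did not overlap (-0.47 ± 0.10, limma adjusted p = 0.00236 over 13897 probe sets). In fasted dams it read 1147, 1137 and 1098 in total RNA and 659, 838 and 692 in polysome RNA, also without overlap (-0.63 ± 0.10, limma adjusted p = 3.11e-04 over 13897 probe sets).

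**Figure D2:**
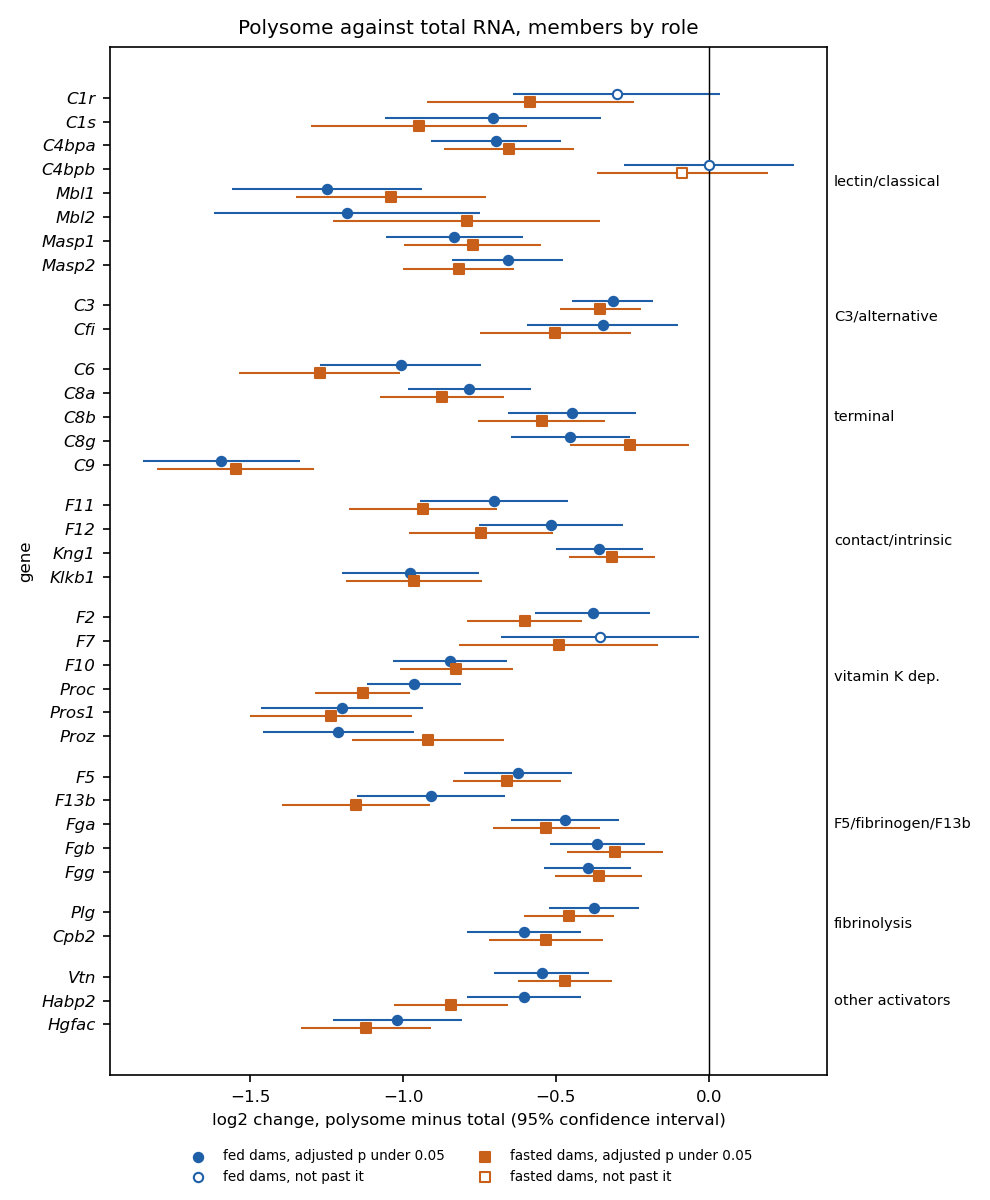
Log2 change from total to polysome RNA (x axis) of each of the 35 genes, grouped by role, in fed dams (blue circles) and fasted dams (orange squares), with 95% confidence intervals from the limma fit and filled symbols where the adjusted p was under 0.05. C9 lies lowest in both diets, and C4bpb lies at 0.0007 and -0.09.

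Of the 6 vitamin K dependent factors tested, 5 were lower in fed and 6 in fasted dams, with medians of -0.91 and -0.87 log2. Proc, the zymogen of activated protein C, which switches coagulation off, had the smallest p of the members in both diets. Proc measured 4598, 4538 and 4526 in total RNA and 2492, 2192 and 2323 in polysome RNA of fed dams, and 5466, 5015 and 5373 and 2348, 2564 and 2321 in those of fasted dams. The spread within each group was small beside the gap between total and polysome RNA, which was 1.95-fold in fed dams (-0.97 ± 0.072, limma adjusted p = 8.58e-07) and 2.19-fold in fasted dams (-1.13 ± 0.072, limma adjusted p = 3.96e-07). Pros1, protein S, the cofactor of activated protein C, was 2.30-fold lower in fed dams (-1.20 ± 0.12, limma adjusted p = 7.91e-06) and 2.36-fold lower in fasted dams (-1.24 ± 0.12, limma adjusted p = 5.87e-06). Pros1 measured 1103, 1158 and 1256 in total RNA and 417, 514 and 616 in polysome RNA of fed dams, and 1164, 1134 and 1382 and 528, 488 and 540.3 in those of fasted dams. Every polysome array was below every total array.

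Proz, protein Z, a cofactor for the inhibition of factor X, lies beside F10 and F7 on chromosome 16. Proz measured 3429.7, 3334 and 3639 in total RNA and 1486, 1371 and 1639 in polysome RNA of fed dams, and 3685, 3499 and 3751 and 2385, 1659 and 1808 in those of fasted dams. It was 2.32-fold lower in fed dams (-1.21 ± 0.11, limma adjusted p = 4.45e-06) and 1.89-fold lower in fasted dams (-0.92 ± 0.11, limma adjusted p = 3.12e-05). F10, the protease that makes thrombin, was close in both diets. F10 measured 4592, 4098 and 4343 in total RNA and 2309.7, 2239 and 2715 in polysome RNA of fed dams, and 4424, 4429 and 4699 and 2758, 2441 and 2452 in those of fasted dams. The changes were -0.85 ± 0.086 and -0.83 ± 0.086 (limma adjusted p = 7.48e-06 and 7.73e-06). F7, the protease that tissue factor binds, was called in 1 diet. F7 measured 371, 276 and 366 in total RNA and 227, 235 and 335 in polysome RNA of fed dams, and 329, 404 and 402 and 249, 268 and 288 in those of fasted dams. The fed groups overlapped, since fed polysome 3 lay above fed total 2, and F7 was not called there (-0.36 ± 0.15, limma adjusted p = 0.0656). It passed at 0.013 with each liver as a fixed block, 0.0286 with it as a random block, 0.0346 with the replicate number as a block, 0.0496 with quantile normalization, 0.00603 without fed polysome 3 and 0.0189 without fed total 2. In fasted dams it was called (-0.49 ± 0.15, limma adjusted p = 0.0157), but not without fasted polysome 1, fasted total 2 or fasted total 3 (0.0564, 0.0554 and 0.0532). F2, prothrombin, changed by -0.38 and -0.60.

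Of the contact and intrinsic factors, Klkb1, plasma prekallikrein, changed by -0.98 ± 0.10 in fed and -0.96 ± 0.10 in fasted dams (limma adjusted p = 1.02e-05 and 9.75e-06). F11, which activates factor IX, changed by -0.70 ± 0.11 and -0.93 ± 0.11 (limma adjusted p = 2.16e-04 and 2.26e-05). F12, the Hageman factor that starts the contact phase, changed by -0.52 and -0.74. Kng1, the kininogen that carries prekallikrein, changed by -0.36 and -0.32. Kng1 has 2 probe sets, and rat kininogens are a family of close copies, so which gene they read is uncertain. The dimmer probe set changed by -0.36 ± 0.24 and -0.40 ± 0.24 (limma adjusted p = 0.241 and 0.195 over 13897 probe sets).

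The fibrinogen chains Fga, Fgb and Fgg, neighbours on chromosome 2, stayed close to each other, with falls of -0.47, -0.36 and -0.40 in fed dams and -0.53, -0.31 and -0.36 in fasted dams (limma adjusted p from 1.60e-04 to 0.00344). Fgg measured 11812, 12222 and 12581 in total RNA and 8929, 9004 and 9933 in polysome RNA of fed dams, and 13015, 12783 and 12284 and 9883, 10058 and 9716 in those of fasted dams. F13b, the carrier subunit of the fibrin cross-linker, was called in both diets. F13b measured 2499, 2724 and 2709 in total RNA and 1189.7, 1429.9 and 1636 in polysome RNA of fed dams, and 2884, 2464 and 2898 and 1121, 1338 and 1243 in those of fasted dams. Its changes were -0.91 ± 0.11 and -1.15 ± 0.11 (limma adjusted p = 3.11e-05 and 4.87e-06). F5, the cofactor of factor X, changed by -0.62 and -0.66. Of the fibrinolysis genes, Plg, plasminogen, changed by -0.38 and -0.46, and Cpb2, the carboxypeptidase that slows clot lysis, by -0.60 and -0.53.

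Hgfac, the protease that activates hepatocyte growth factor, fell furthest of the remaining activators. Hgfac measured 1876, 2083 and 1787 in total RNA and 894, 853 and 1099 in polysome RNA of fed dams, and 2386, 2456 and 2221 and 1142, 1095 and 1009 in those of fasted dams. The changes were 2.03-fold (-1.02 ± 0.098, limma adjusted p = 5.04e-06) and 2.18-fold (-1.12 ± 0.098, limma adjusted p = 2.24e-06). Habp2, a hyaluronan-binding protease that can activate factor VII, changed by -0.60 and -0.84, and Vtn, vitronectin, an adhesion protein that also blocks the complement pore, by -0.55 and -0.47.

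Polysome changes in fed and fasted dams come from different arrays and livers and ordered the members alike, with Pearson r = 0.886 and Spearman rho = 0.872 across the 35 genes, beside 0.918 and 0.895 across all 8698 genes tested. The points share their probe sets, and genes are not independent replicates. Of the 35, 31 of 32 calls in fed dams and 32 of 34 in fasted dams were made under every alternative run. The exceptions were Cfi in fed and C8g and F7 in fasted dams.

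Other genes of the pathways, from lists that hold no member, were mostly lower on polysomes too. Of 22 other complement genes tested, 14 were lower in fed dams, and 16 were lower and 1 higher in fasted dams, with medians of -0.57 and -0.47 log2. Colec10, a collectin, measured -1.59 ± 0.10 in fed and -1.32 ± 0.10 in fasted dams (limma adjusted p = 3.66e-07 and 8.41e-07). Of 31 other coagulation genes, 25 were lower in fed and 26 in fasted dams, with medians of -0.44 and -0.54. Hgf, the growth factor that Hgfac activates, measured -1.33 ± 0.11 and -1.39 ± 0.11 (limma adjusted p = 2.25e-06 and 1.40e-06). Of 11 acute phase proteins tested, 8 were lower in fed and 9 in fasted dams, with medians of -0.54 and -0.71, and of 9 genes of the vitamin K cycle and factor export, 5 and 6. Ggcx, the carboxylase that modifies vitamin K dependent factors, measured -0.61 ± 0.13 and -0.97 ± 0.13 (limma adjusted p = 0.00155 and 4.75e-05), and Lman1, a cargo receptor for factors V and VIII, -0.72 ± 0.11 and -0.81 ± 0.11 (limma adjusted p = 1.53e-04 and 5.95e-05).

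Of 13 transcription factors and signalling genes of the liver tested, 4 were higher and 2 lower in fed dams and 4 higher and 3 lower in fasted dams, with medians of 0.11 and 0.18. Of all genes tested, 28% were higher and 21.8% lower in fed dams, and 29.5% and 20.2% in fasted dams. The plasma carriers among the hepatocyte markers had smaller values than most members. Alb, albumin, measured -0.12 ± 0.058 in fed and -0.10 ± 0.058 in fasted dams (limma adjusted p = 0.0934 and 0.163), and Ttr, transthyretin, 0.08 ± 0.063 in both (0.328 and 0.298). Over the 12 hepatocyte markers the medians were -0.19 and -0.18. Of these 12, 7 were called lower and 1 higher in fed dams, and 8 lower and 1 higher in fasted dams. They ran from -0.56 (Apob) to 0.45 (Apoa2) in fed dams and from -0.58 (Apob) to 0.39 (Apoa2) in fasted dams. Marker lists of other cells went different ways. Lower on polysomes were 9 of 9 mesenchymal markers in both diets, with medians of -0.88 and -0.87, and 8 and 10 of 10 endothelial markers in fed and fasted dams. Of 10 macrophage markers 6 were lower in fed dams, and 7 were lower and 1 higher in fasted dams. Of 8 erythroid markers 0 were lower by limma (0 also at an unadjusted p under 0.05), and 2 were higher in fed and 1 in fasted dams. Of 9 neutrophil markers 2 were higher and 3 lower in fed dams, and 2 higher and 2 lower in fasted dams. The difference between these lists and the members was not tested, nor was the part of cell makeup.

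The second question was how fasting of the dam altered these messages in total RNA. F11 alone was called among the 35 (2.86%), higher after fasting, where 1.62% of all genes tested were called in either direction, 1.14% higher and 0.483% lower. F11 read 883, 955 and 1070.3 in fed and 1524, 1416 and 1616 in fasted total RNA. All 3 fasted arrays were above all 3 fed arrays, a rise of 1.57-fold (0.65 ± 0.11 SE log2, 95% interval 0.41 to 0.89, limma adjusted p = 0.0171). The call was lost without fed total 1 (0.0822), the array with the high pancreas sum, fed total 2 (0.0517) or fasted total 1 (0.0675), with a change of 0.58 to 0.72 over the 12 fits that left out 1 array. Without fed total 1 the change was 0.58. Of the 3 pancreas markers tested, Cpa1 was called lower in fasted total RNA (-1.98 ± 0.43, limma adjusted p = 0.0453). Ctrb1 measured -1.80 ± 0.53 (limma adjusted p = 0.0989), and Cpb1 went the other way, at 0.73 ± 0.26 (limma adjusted p = 0.164). The part of pancreas RNA in the call of F11 was not tested. In bulk samples a different number of cells of a type and a different amount of RNA per cell cannot be told apart.

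The members with the next smallest p were Hgfac, Proc and C1s. Hgfac read 1876, 2083 and 1787 in fed and 2386, 2456 and 2221 in fasted total RNA, a change of 0.30 ± 0.098 (limma adjusted p = 0.14). Proc read 4598, 4538 and 4526 in fed and 5466, 5015 and 5373 in fasted total RNA, a change of 0.21 ± 0.072 (limma adjusted p = 0.147). C1s read 698, 598 and 632 in fed and 887, 1032 and 749 in fasted total RNA, a change of 0.46 ± 0.16 (limma adjusted p = 0.17). In these 3 genes no fasted array reached down to a fed array, but none was called. C1r, the neighbour of C1s, measured 0.33 ± 0.16 (limma adjusted p = 0.299). The endothelial sum given above was also higher in fasted total RNA, with 3 of 10 markers called higher (Esam, Fcgr2b and Pecam1). The macrophage sum was 7818 to 8094 in fed and 8483 to 9592 in fasted total RNA, with 10 of 10 markers above 0 and 0 called by limma (3 at an unadjusted p under 0.05). The mesenchymal sum overlapped, with 1 of 9 markers called higher (Pdgfrb). Their part in the values of the members was not tested. Klkb1, the neighbour of F11, measured 0.27 ± 0.10 (limma adjusted p = 0.198).

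The groups did not overlap in 8 of 35 members, 7 higher (20%) and 1 lower (2.86%), where 26.2% of all genes tested did not overlap, 13.6% higher and 12.6% lower. Changes lay above 0 in 30 of 35 members, beside 50.3% of all genes, with a median of 0.07 log2 beside 0.001. Members with an unadjusted p under 0.05 numbered 5 (14.3%, against 17.5% of all genes). By role, the contact and intrinsic factors ran from 0.03 (Kng1, brighter probe set) to 0.65 (F11) and the vitamin K dependent factors from 0.06 (F10) to 0.21 (Proc). The lectin and classical genes ran from -0.30 (Mbl2) to 0.46 (C1s), and the pore genes from -0.12 (C6) to 0.20 (C9). The other Kng1 probe set read 475, 503 and 582 in fed and 769, 720 and 738 in fasted total RNA, without overlap, and measured 0.52 ± 0.24 (limma adjusted p = 0.347 over 13897 probe sets), so the value of Kng1 depends on the probe set. C3 and Cfi measured 0.03 and 0.09. The probe set shared by C2 and Cfb measured 0.23 ± 0.10 in total RNA, without overlap, and 0.06 ± 0.10 in polysome RNA (limma adjusted p = 0.323 and 0.761 over 13897 probe sets). The group of F5, fibrinogen and F13b held between 0.00 (Fgb) and 0.07 (Fga), the fibrinolysis genes between 0.01 (Cpb2) and 0.02 (Plg), and the other activators between 0.04 (Vtn) and 0.30 (Hgfac). For the fibrinogen chains the 95% intervals of the change stayed within -0.15 to 0.25.

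**Figure D3:**
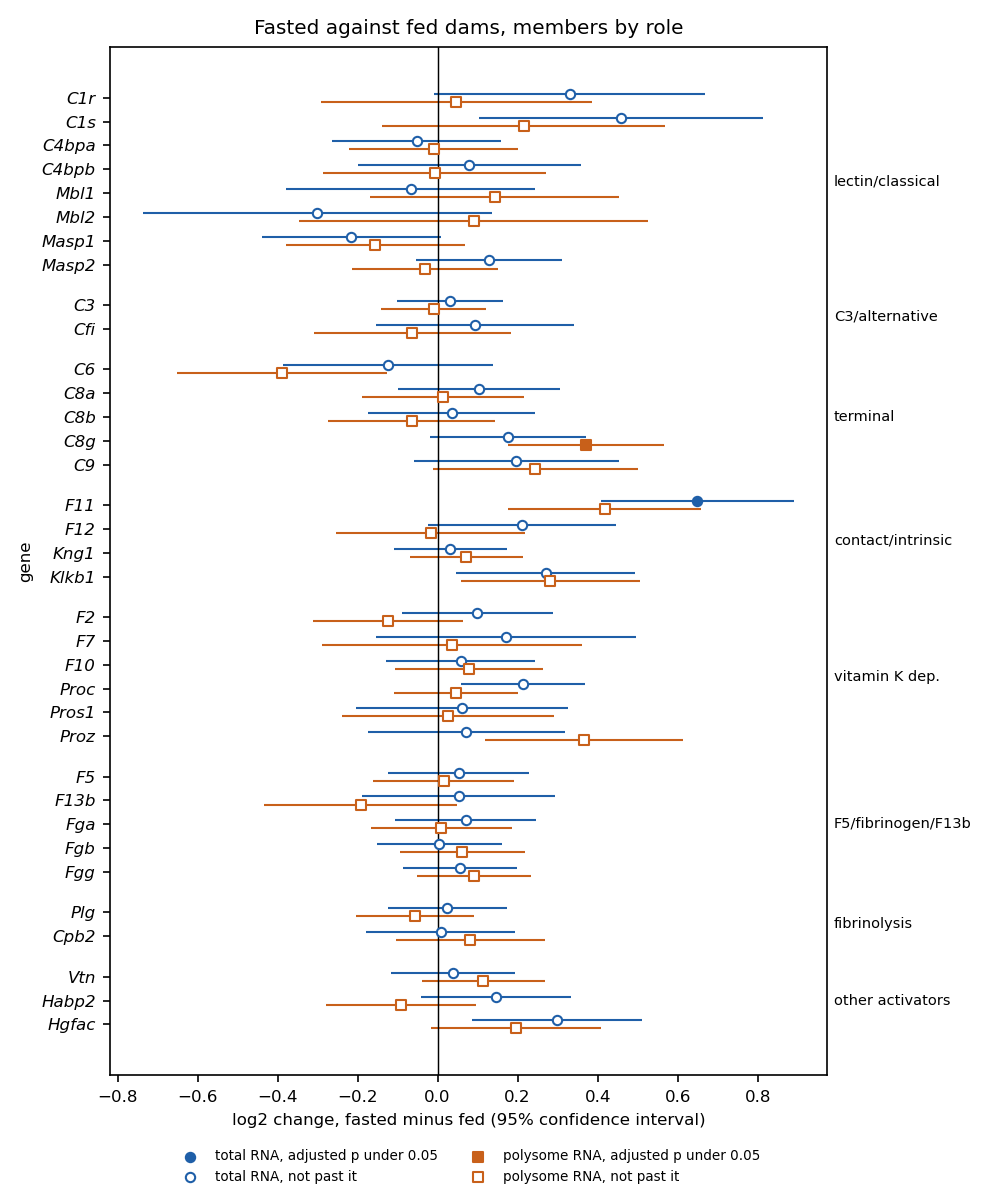
Log2 change from fed to fasted dams (x axis) of each of the 35 genes, grouped by role, in total RNA (blue circles) and polysome RNA (orange squares), with 95% confidence intervals from the limma fit and filled symbols where the adjusted p was under 0.05. F11 in total RNA (0.65) and C8g in polysome RNA (0.37) are the filled symbols.

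The third question was the effect of fasting on polysome RNA. C8g alone was called among the 35 (2.86%), and it was higher, where 3.66% of all genes tested were called, 2.61% higher and 1.05% lower. C8g read 2629, 2527 and 2127 in fed and 3372, 3082 and 2939 in fasted polysome RNA. All fasted arrays were above all fed arrays, a rise of 1.29-fold (0.37 ± 0.090, limma adjusted p = 0.0438). Its call was weak. It was lost with no filter (0.0824), with the filter set at the 40th percentile of all probe sets (0.0532) and in a fit restricted to both groups of polysome arrays (0.134). The call went as well without fed polysome 2 or 3 (0.106 and 0.133), fed total 1, 2 or 3 (0.0598, 0.0601 and 0.0583), fasted polysome 1 or 3 (0.165 and 0.11) or fasted total 1 or 2 (0.0553 and 0.057). The other pore genes C8a and C8b measured 0.01 and -0.07.

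F11 read 509, 616 and 667 in fed and 701, 840.3 and 847 in fasted polysome RNA. The groups did not overlap, and the change was 0.42 ± 0.11 (limma adjusted p = 0.0563), or 0.04998 with each liver as a random block, 0.0243 with the replicate number as a block, 0.0489 with the stricter filter and 0.0432 with trend and robust priors. It was called in these 4 of 24 alternatives and in 0 of the 12 fits without 1 array, with adjusted p up to 0.185 (without fasted polysome 3). Without fed polysome 1 and fasted polysome 2 together the change was 0.26 (limma adjusted p = 0.148). Proz read 1486, 1371 and 1639 in fed and 2385, 1659 and 1808 in fasted polysome RNA, a change of 0.37 ± 0.11 (limma adjusted p = 0.0869). It was 0.47 without fasted polysome 2 (0.0253) and 0.21 without fasted polysome 1 (0.282), the array that read highest, and was called in 2 of 24 alternatives. C6 read 964, 1338 and 1426 in fed and 926, 859.9 and 1029.6 in fasted polysome RNA, a change of -0.39 ± 0.12 (limma adjusted p = 0.0871). It was -0.56 without fed polysome 1 (0.0122) and -0.28 without fed polysome 3 (0.252), and was called in 2 of 24 alternatives, of which 1 left out a single array. Fed polysome 1 lay among the fasted arrays of C6, and the other fed arrays lay above all of them.

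Groups did not overlap in 4 of 35 members, all higher (11.4%), where 22.5% of all genes tested did not overlap with 13.3% higher and 9.23% lower. An unadjusted p under 0.05 was reached by 5 members (4 higher, 1 lower), beside 22.9% of all genes. The 4 that did not overlap were F11, Klkb1, C8g and Proz. Klkb1 read 1711, 1797 and 2076 in fed and 2232, 2145 and 2395 in fasted polysome RNA, a change of 0.28 ± 0.10 (limma adjusted p = 0.13). The members' median was 0.04 log2, beside 0.02 over all genes, and 22 of 35 (62.9%) lay above 0, beside 55.2% of all genes. The median had no settled sign: it was -0.01 without fed polysome 2, 0.09 without fed polysome 3, and -0.02 without fed polysome 1 and fasted polysome 2 together. By role, the vitamin K dependent factors ran from -0.12 (F2) to 0.37 (Proz), the contact and intrinsic factors from -0.02 (F12) to 0.42 (F11), with Kng1 at 0.07 by its brighter and 0.48 ± 0.24 by its other probe set (limma adjusted p = 0.284 over 13897 probe sets for the latter), and the lectin and classical genes from -0.16 (Masp1) to 0.22 (C1s). C3 and Cfi measured -0.01 and -0.06, the group of F5, fibrinogen and F13b lay between -0.19 (F13b) and 0.09 (Fgg), Plg and Cpb2 measured -0.06 and 0.08, and the other activators lay between -0.09 (Habp2) and 0.20 (Hgfac).

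**Figure D4:**
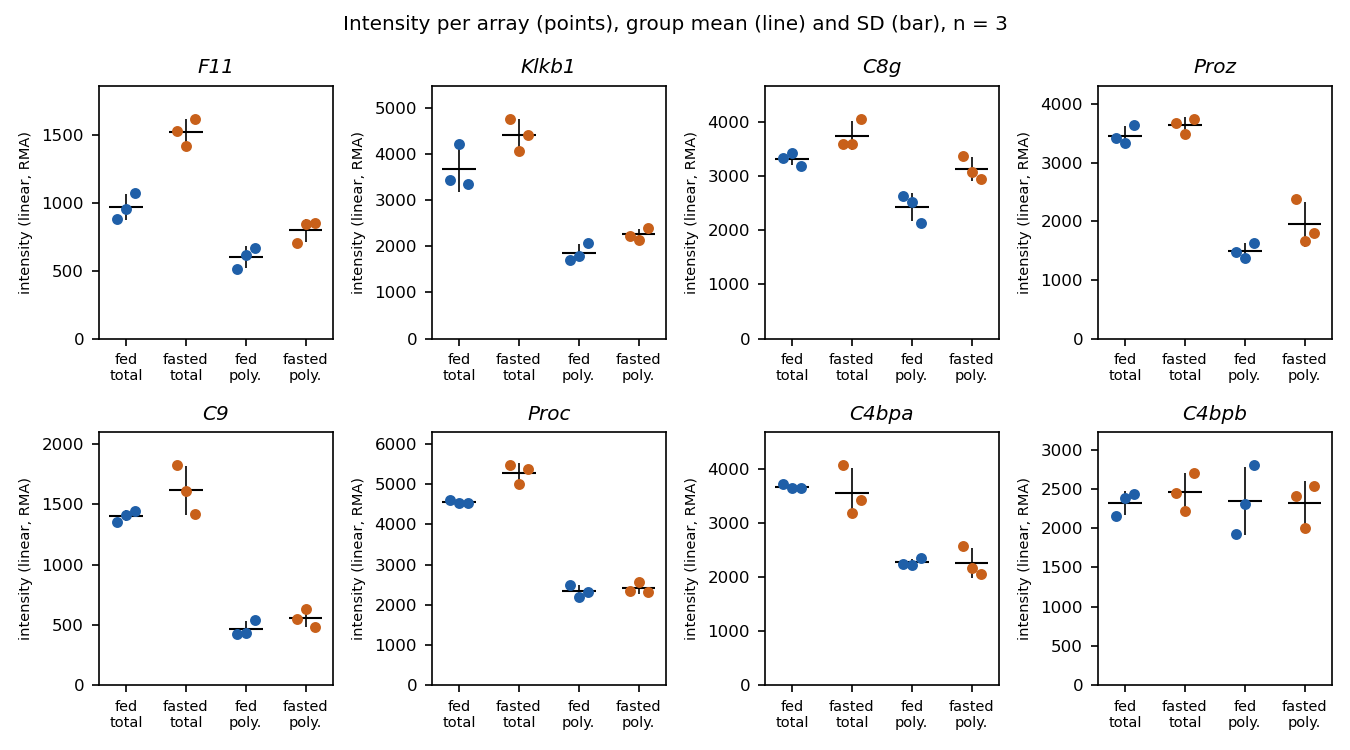
RMA intensity on a linear scale (y axis) in each of the 12 arrays (points) for 8 genes, by group (x axis), with the mean as a line and the SD as a bar (n = 3). F11 is higher in fasted than fed arrays in both fractions, C9 and Proc are low in polysome RNA, and C4bpb is level across the 4 groups.

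Fasting effects in total and polysome RNA come from different arrays. By the pairing of replicate numbers, which was read from the data, they were taken to share their livers, so they are not treated as independent. The 35 changes correlated at Pearson r = 0.532 and Spearman rho = 0.34, beside 0.6 and 0.52 across all genes tested. A direct test of the difference between both effects called 0 of 35 members by limma, with 0 at an unadjusted p under 0.05, and 0% of all genes tested, of which 5.75% had an unadjusted p under 0.05. The 3 members with the smallest p were Habp2 (-0.24 ± 0.12, limma adjusted p = 0.799), Proz (0.29 ± 0.16, 0.806) and F2 (-0.22 ± 0.12, 0.806). For F11 the difference was -0.23 with a 95% interval of -0.57 to 0.11, and for C8g 0.20 with -0.08 to 0.47. Members that passed in 1 fraction alone were thus not shown to respond differently in the other.

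Of the other pathway genes, 0 of 22 complement and 0 of 31 coagulation genes were called for fasting in total RNA by limma, with 3 and 5 of them past an unadjusted p of 0.05. Of all genes tested, 1.62% were called there and 17.5% passed an unadjusted p of 0.05. In polysome RNA 1 of 22 complement genes was called by limma and 5 passed an unadjusted p of 0.05, beside 3.66% and 22.9% of all genes tested. The called gene was C1qb, a chain of C1q made by macrophages, which rose 1.42-fold (0.51 ± 0.11, limma adjusted p = 0.0354). The summed macrophage markers, of which C1qb is 1 of the 10 tested, were 5801 to 6017 in fed and 6756 to 7105 in fasted polysome RNA, and their part in this rise was not tested. Of 31 coagulation genes 0 were called in polysome RNA by limma, with 5 past an unadjusted p of 0.05. Of 9 genes of the vitamin K cycle and factor export 1 was called there, Pcsk7, a proprotein convertase, which fell 1.27-fold (-0.35 ± 0.063, limma adjusted p = 0.0196). Of 13 transcription factors and signalling genes of the liver 1 was called, Onecut1, which rose 1.37-fold (0.45 ± 0.11, limma adjusted p = 0.0476). The alternatives were run for members only, so how firm the calls of C1qb, Pcsk7 and Onecut1 are was not tested. Acute phase proteins had 0 of 11 called by limma in either fraction, with 2 past an unadjusted p of 0.05 in each. In total RNA 1 of the 2 was higher and 1 lower, and the 11 changes ran from -0.26 to 0.42 with a median of 0.01. The higher of the 2 was Lbp, the lipopolysaccharide-binding protein, at 0.39 ± 0.10 (limma adjusted p = 0.0713).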

How the data were processed

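The intensity values were deposited as 1 table of 12 arrays on a linear scale. Per the submitters' processing notes the authors made them with RMA, of a version not given in the sources used here. All 12 columns were matched to samples by their labels.

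Probe sets were named through the platform annotation and updated by Entrez identifier against RefSeq (GRCr8), which matched 15178 of 15209 probe sets with 1 symbol. The brightest probe set stood for a gene. Values were taken as log2(intensity + 1), and genes with a mean under 6.87, the 40th percentile of 14497 genes, were left out, so 8698 were tested. Fold changes are on this scale. limma 3.58.1 (R 4.3.3) fitted 1 mean per group to all 12 arrays, with 8 residual degrees of freedom, and 5 comparisons were made: fasting in each fraction, their difference, and polysome against total RNA in each diet. P-values were adjusted over all genes tested. The number of arrays limits the precision, with a median SE of 0.0919. The fit was also run on simulated data with independent noise in each array. Correlation between arrays of 1 liver was therefore not covered by that run. Figures used Python 3.11.15 and matplotlib 3.10.9.

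Every member is named. Those called, at most 6 per direction by smallest p, are given in full, or the 3 with the smallest p where none was called, with other members added where neighbours or exceptions were of interest. The members and all lists (other pathway genes, acute phase proteins, regulators and markers of hepatocytes, erythroid cells, megakaryocytes, macrophages, endothelium, neutrophils, mesenchyme and exocrine pancreas) were chosen with earlier results of these data known. Erythroid markers had medians near 0 between fractions (-0.01 log2 in fed and 0.01 in fasted dams, 8 tested), neutrophil markers -0.31 and 0.01 (9 tested), and megakaryocyte markers -0.32 and -0.55 (6 tested).

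Deviations from the group means of total and polysome arrays of 1 diet correlated at 0.162 to 0.366 for the same replicate number and at -0.258 to -0.0211 for other numbers. The number was therefore taken to mark a liver within a diet, which is read from the data and not stated in the labels. Deviations within a group cancel out by construction, so the negative values are not separate support for the pairing. Fed and fasted arrays of 1 fraction come from different dams. Their deviations correlated at -0.152 to 0.353 for the same number and at -0.292 to 0.284 for other numbers. The highest of these is near 0.366, so the pairing is not certain, and a batch shared by number was not tested. Alternatives were the added constant, the filter, scaling, the probe set rule, the prior, the arrays in the fit, the replicate block and leaving out arrays.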

Additional observations from a re-analysis of the deposited data

How the results depend on the processing

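The count of members lower on polysomes was 31 to 34 in fed and 32 to 34 in fasted dams over all 25 alternatives. Leaving out each array in turn gave a median of -0.6724 to -0.594 in fed dams. For fasting in total RNA it gave 0 to 1 called members and a median of 0.0439 to 0.1156. For fasting in polysome RNA it gave 0 to 2 called and a median of -0.005555 to 0.09486, and for the difference between fasting effects a median of -0.1141 to 0.01185. The count for fasting in polysome RNA, 1 as reported, was 0 with no filter, 0 with only the compared arrays fitted, 0 with the filter taken over all probe sets (an alternative chosen after seeing the data), 2 with the stricter filter, 2 with trend and robust priors, and 5 without fed polysome 1 and fasted polysome 2 together, where the median of the difference was -0.1351. Without those 2 arrays C6, Mbl1, F13b and Proz were called beside C8g, so the members called changed as well as their number. The cause was not tested. With the replicate block the count for fasting in polysome RNA was 2, both for the number over all groups and for the liver as a random block, which added F11. Beside F11, F7 and C1r, whose blocked values are given with them, the replicate block changed no other member's call. Depth is not known for arrays, and the median SE of 0.0919 log2 limits small changes.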

Other observations

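Some regulators of liver genes were called between fractions, in shares near those of all genes tested (4 of 13 higher and 2 of 13 lower in fed dams, beside 28% and 21.8% of all genes). Foxa3, a hepatocyte transcription factor, was higher in polysome than in total RNA, by 0.83 ± 0.18 log2 in fed and 0.56 ± 0.18 in fasted dams (limma adjusted p = 0.00197 and 0.0208). Nr5a2, a nuclear receptor of bile acid and cholesterol genes, was higher by 0.46 ± 0.091 and 0.40 ± 0.091 (limma adjusted p = 0.00114 and 0.00274). Il6st, the shared receptor chain of interleukin-6 signals, was lower, at -0.51 ± 0.12 and -0.62 ± 0.12 (limma adjusted p = 0.00413 and 0.00106). Stat3, which carries that signal to the nucleus, was lower too, at -0.49 ± 0.079 and -0.44 ± 0.079 (limma adjusted p = 2.44e-04 and 5.04e-04). The difference between these genes and the factors was not tested.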
